A study of Mus musculus with 27 samples.

Results

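PDGFRα+ cardiac fibroblasts from mice of 1.5 years were compared with those from mice of 14 weeks, over every gene that lies off the X and Y chromosomes. Of the 22855 genes in the fibroblast table, 21206 had a position off X and Y and were taken as members, 859 lay on X or Y, and 790 could not be placed. A filter on low counts left 17711 of the members for testing, and the other 3495 were not tested. The samples were C57Bl/6 mouse hearts, with no transgene or treatment in the labels. The design text of the series speaks of myocardial infarction, which no sample label names, so the samples were grouped by age alone. At 14 weeks there were 2 fibroblast samples (replicates 4 and 6), and at 1.5 years there were 2 (replicates 4 and 5). The series holds 12 fibroblast samples of 5 ages and 15 whole heart samples, measured by RNA-Seq as reads counted per gene. Per the study's methods, ventricles were minced and digested with enzyme, and PDGFRα+ cells were then isolated by flow cytometry, so each fibroblast level is that of cells after digestion and sorting. The study's methods describe 3 sets of fibroblasts from different hearts at each age, while the labels used here give 2 at each of these ages. Nothing in the labels ties a sample to a heart or a pool. The p values rest on a spread shared by all 12 fibroblast samples, and that spread may be technical.

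PDGFRα is a growth factor receptor that marks the resident fibroblasts of the heart, the cells that make and turn over most of its collagenous matrix. Genes of different kinds were kept apart. Stress response genes include the immediate early genes, which cells switch on within minutes of a stimulus without new protein synthesis, the heat shock chaperones, which bind unfolded proteins, and the targets of the transcription factor NF-κB, many of which encode cytokines. Leukocyte genes mark immune cells that can be carried into a sort, and fibroblast genes encode the identity, matrix and matrix-turnover proteins of the sorted cells themselves.

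The 4 libraries held between 54615898 and 69488053 counts. Levels are given as edgeR's CPM, which are counts scaled to a common library size after TMM scaling. This is the usual scale on which libraries of unlike depth are compared. Genes of the mitochondrial genome took 3.84% and 2.98% of the counts at 14 weeks, and 2.20% and 7.83% at 1.5 years. Pdgfra, the receptor used for the sort, was at 1209 and 1367 CPM at 14 weeks and 1139 and 1164 CPM at 1.5 years, and Dcn, which encodes the fibroblast proteoglycan decorin, was at 11198 and 12179 CPM and 12445 and 11002 CPM. Xist, which is transcribed from an inactive X chromosome, was at 0.0173 and 0.0701 CPM at 14 weeks and at 429 and 424 CPM at 1.5 years. Ddx3y, a gene of the Y chromosome, was at 74.9 and 83.3 CPM at 14 weeks and at 0.0813 and 0.0467 CPM at 1.5 years. The labels give no sex, and in these 4 samples age and sex cannot be told apart. The fibroblasts of 1 year, with Xist at 0.315 and 0.194 CPM and Ddx3y at 74.1 and 71.7 CPM, resembled those of 14 weeks in both genes and are given beside the comparison for that reason. All fibroblast libraries of 4 weeks and postnatal day 1 held both Xist (137 to 590 CPM) and Ddx3y (24.8 to 50.8 CPM), unlike the libraries compared. They share in the estimate of the spread, and the effect of this on the p values was not tested.

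Both 14-week libraries stood apart from the other 10 fibroblast libraries in genes that have near-identical copies elsewhere in the transcriptome. In 80 genes both 14-week libraries were at least 1.5-fold above all 10 others, and in 56 of these 80 at least 5% of the transcript's 50-base words were shared with another gene. The same count gave 46 genes for the pair of 1.5 years, of which 4 of 45 with a value shared words to that extent, and 29 genes for the pair of 1 year, of which 2 of 27 did. Both 14-week libraries were below all 10 others to the same extent in 50 genes, of which 6 of 49 with a value shared words, against 10 genes for the pair of 1.5 years and 10 for the pair of 1 year. Among the genes lower at 1.5 years than at 14 weeks, 43 of 140 with a value (30.7%) shared words, against 16% of all genes tested and 10.4% of the genes that were higher. Lower levels of such genes are therefore given as uncertain, and the part of read assignment in them was not tested.

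At 1.5 years, 351 genes were higher than at 14 weeks (1.98% of the genes tested) and 143 were lower (0.807%), with edgeR's quasi-likelihood F test at a Benjamini-Hochberg adjusted p under 0.05. Of the 494 genes called (2.79%), 212 were higher and 80 were lower by at least 2-fold. Over all genes tested the median log2 fold change was -0.00027. With library size alone in place of TMM the median moved to -0.18 and the split became 209 genes higher and 352 lower, so the share of higher against lower genes depends on the scaling. Every direction given below is relative to the median gene. The genes that were higher had a median GC content of 56.3%, against 49.8% in all genes tested and 46.2% in the genes that were lower, and offsets for GC content and transcript length left 159 genes higher and 90 lower. Named genes whose calls ended with these offsets are given with their values below. Leaving out replicate 4 or replicate 6 of 14 weeks left 37 and 47 genes higher and 16 and 17 lower, and leaving out replicate 4 or 5 of 1.5 years left 108 and 164 higher and 59 and 37 lower. Between samples, the counts of the 1.5-year replicates differed more than those of the 14-week replicates (chi-square per gene of 240 against 44.8), and neither pair held the same library.

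Among the largest rises at 10 CPM or more was that of Hk2. Hk2, which encodes the glycolytic enzyme hexokinase 2 (chromosome 6, 82725025 to 82774454 in GRCm38), was at 14.3 and 19.5 CPM at 14 weeks and at 307 and 315 CPM at 1.5 years (log2 fold change 4.2 ± 0.51 SE, edgeR adjusted p = 0.0013). The aggrecan-cleaving protease gene Adamts4 (chromosome 1, 171250421 to 171260637) went from 24.1 and 33.7 CPM to 530.0 and 470.1 CPM (log2 fold change 4.11 ± 0.44 SE, edgeR adjusted p = 0.00061). In both genes the samples of the 2 ages were far apart, with no overlap. Gfap, an intermediate filament gene best known in astrocytes (chromosome 11, 102887336 to 102900912), had no count in either 14-week library and stood at 17.5 and 17.4 CPM at 1.5 years, which is at least 372-fold above a floor of 3 counts per 14-week library (edgeR adjusted p = 0.0048). It also had no count in the libraries of postnatal day 1 and 4 weeks, and was at 12.9 and 13.4 CPM at 1 year. The Schwann cell marker Sox10 was at 0 and 0.350 CPM at 14 weeks and at 0.244 and 0.0623 CPM at 1.5 years. It had at most 25 counts in each of the 4 libraries and says little on its own. Of 8 Schwann and neural genes tested none was called, and 5 had a positive and 3 a negative fold change. The list summed to 32.0 and 34.0 CPM at 14 weeks and 50.9 and 59.3 CPM at 1.5 years. Which cells held Gfap was not tested.

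Other large rises were those of Rab20, a small GTPase of endosomes and phagosomes (2.08 and 0.687 CPM against 13.3 and 22 CPM, log2 fold change 3.68), and of Cxcl10, a chemokine that attracts T cells (8.17 and 5.83 CPM against 76.4 and 67.4 CPM, 3.36). Socs1, an inhibitor of cytokine receptor signalling, was at 16.6 and 21.8 CPM and 199 and 170.5 CPM (3.26), and Nop58, a core protein of nucleolar ribonucleoproteins, at 33.4 and 34.7 CPM and 298 and 345 CPM (3.24). Cebpb, a transcription factor of the acute phase and inflammatory response, was at 55.9 and 53.7 CPM and 459 and 424 CPM (log2 fold change 3.01 ± 0.29 SE, edgeR adjusted p = 0.0003). In each of these genes both 1.5-year samples were above both 14-week samples.

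Among the largest falls was that of Dbp. Dbp (chromosome 7, 45705088 to 45710203), a transcription factor with a strong daily rhythm, was at 90.9 and 74.7 CPM at 14 weeks and 8.87 and 2.06 CPM at 1.5 years (log2 fold change -3.92 ± 0.62 SE, edgeR adjusted p = 0.0074). Nr1d1 (chromosome 11, 98767932 to 98775333), the heme-binding repressor of the circadian clock, was at 629 and 519 CPM and 125 and 65.1 CPM (log2 fold change -2.60 ± 0.40 SE, edgeR adjusted p = 0.0061). Neither gene's samples overlapped between the ages. Hunk, which encodes a protein kinase, was at 12.6 and 15.7 CPM and 3.66 and 1.79 CPM (-2.37), the aminopeptidase gene Lvrn at 62.9 and 75.0 CPM and 18.4 and 5.83 CPM (-2.51), and C7, a component of the terminal complement complex, at 404 and 601 CPM and 106 and 109 CPM (-2.22). The remaining large falls were in genes with near-identical copies, which were low or near 0 in all 10 other fibroblast libraries. Sumo2, which encodes a small protein modifier, was at 79.4 and 68.8 CPM and 6.89 and 5.87 CPM (-3.54), the mitochondrial gene mt-Atp6 at 14.2 and 9.18 CPM and 0.0488 and 0.0935 CPM (-7.32), and mt-Co2 at 19.4 and 12.6 CPM and 0.0975 and 0.109 CPM (-7.25). These 3 values are uncertain, because other genes share 19.2%, 99.5% and 100% of their 50-base words. C7 (-2.14), Lvrn (-2.35) and mt-Atp6 (-7.25) were not called with the GC and length offsets.

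A list of 18 circadian clock genes was made after these values had been seen and is therefore only described. Of its 18 members, beside 0.807% of all genes lower and 1.98% higher, 5 were lower at 1.5 years (Dbp, Nr1d1, Nr1d2, Tef and Hlf, of which the last 3 had log2 fold changes of -2.09, -1.60 and -1.07) and 1 was higher (Nfil3, 13.6 and 15.7 CPM against 78.0 and 94.5 CPM, log2 fold change 2.56, edgeR adjusted p = 0.0043). Nfil3 encodes a repressor that competes with the Dbp, Tef and Hlf activators for the same DNA element. Arntl, the clock activator BMAL1, was at 23.6 and 35.9 CPM and 104 and 91.3 CPM (edgeR adjusted p = 0.073), and Per1 at 209 and 195 CPM and 143 and 234 CPM, which overlapped. The hour of harvest is not given in the sources used here, and its part in these values was not tested. Tef (-1.67) and Hlf (-0.89) were not called with the GC and length offsets.

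Each of the 4 stress response lists held genes that were higher at 1.5 years. In total 48 of 134 members tested (35.8%) were higher and none was lower by edgeR's test, against 1.98% and 0.807% of all genes, and the median log2 fold change was 1.04. Samples of the 2 ages did not overlap, with 1.5 years above, in 99 of the 134, against 25.6% of all genes, and with 1.5 years below in 5, against 26% of all genes, and 119 had a positive fold change. At an unadjusted p under 0.05 the edgeR test gave 71 members higher and 2 lower. With other scalings, filters and tests the count of higher members ranged from 33 to 65, with at most 1 lower, and was 8 or 11 when replicate 4 or 6 of 14 weeks was left out and 23 or 34 when replicate 4 or 5 of 1.5 years was.

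**Figure D1:**
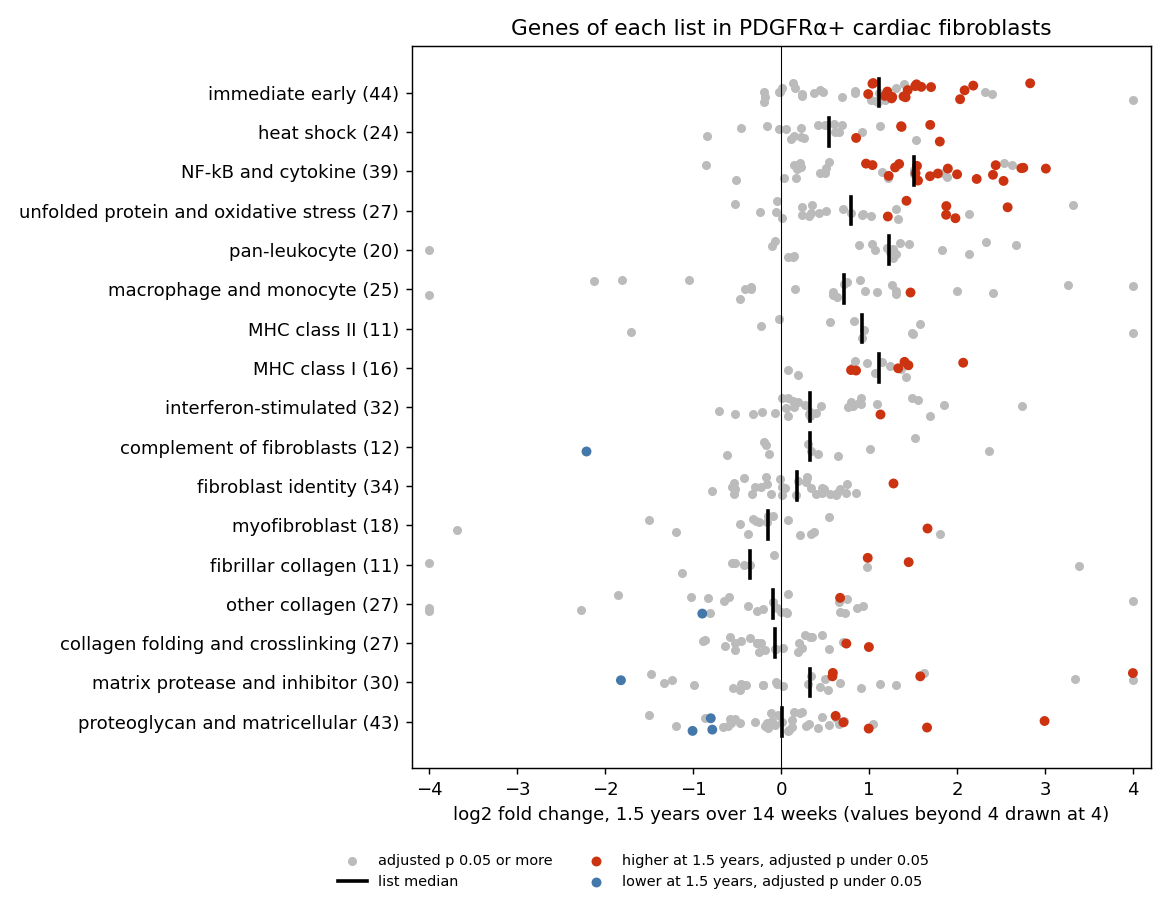
Log2 fold change between 1.5 years and 14 weeks (horizontal axis, positive values higher at 1.5 years, values beyond 4 drawn at 4) of each gene tested in 17 lists (rows, with the number of genes). Red and blue points passed edgeR's test and grey points did not; black bars are list medians, at 1.11 for immediate early genes, 1.51 for NF-κB and cytokine genes and 0.18 for fibroblast identity genes.

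Of 44 immediate early genes 18 were higher (40.9%, against 1.98% of all genes) and none was lower. The list's median log2 fold change was 1.11. Csrnp1, a nuclear protein first found as an AXIN1 target, was at 66.3 and 52.3 CPM at 14 weeks and 396 and 448 CPM at 1.5 years (log2 fold change 2.83 ± 0.42 SE, edgeR adjusted p = 0.0048). Plk3, a stress-activated polo-like kinase, was at 13.3 and 16.6 CPM and 55.3 and 80.9 CPM (log2 fold change 2.18 ± 0.48 SE, edgeR adjusted p = 0.033), and the growth arrest gene Gadd45b at 82.9 and 68.6 CPM and 308 and 335 CPM (log2 fold change 2.09 ± 0.30 SE, edgeR adjusted p = 0.0043). None of these genes overlapped between the ages. Of the most abundant members, Egr1 and Fos did not pass the test and Fosb did. Egr1, a zinc finger transcription factor, was at 8632 and 9506 CPM and 10852 and 10568 CPM (edgeR adjusted p = 0.61) without overlap, and Fos, a subunit of the transcription factor AP-1, at 5337 and 5462 CPM and 5677 and 4988 CPM (adjusted p = 1), with overlap between the ages. Its relative Fosb rose from 4057 and 4514 CPM to 8948 and 8652 CPM (log2 fold change 1.04, edgeR adjusted p = 0.0068). Summed over the list, the level was 42234 and 45193 CPM at 14 weeks and 68156 and 65384 CPM at 1.5 years, which was 4.47% and 4.69% of the counts at 14 weeks and 6.29% and 6.04% at 1.5 years. With the GC and length offsets Plk3 had a log2 fold change of 1.79 and Maff, another AP-1 family gene, 1.68, and neither was called.

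Among the other AP-1 genes some passed the test and others did not, and the differences between them were not tested. Junb (2408 and 2495 CPM against 4876 and 4858 CPM, log2 fold change 0.99) and Jund (1108 and 1163 CPM against 3359 and 3173 CPM, 1.52) were higher by edgeR's test, with adjusted p = 0.0075 and 0.00098. Jun was at 4507 and 5140.0 CPM and 5861 and 5463 CPM (adjusted p = 0.7). Fosl1 was at 0.26 and 0.14 CPM and 11.5 and 21.1 CPM, and Fosl2 at 175 and 209 CPM and 452 and 559 CPM, and neither passed edgeR's test (adjusted p = 0.18 and 0.17). Klf4 and Klf2, zinc finger factors that respond to serum and shear stress, were higher (1.42 and 1.26), while Klf6, at 435 and 454 CPM and 536 and 451 CPM, and Klf10, at 60.6 and 52.1 CPM and 42.9 and 56.4 CPM, were not called. These genes were picked from the AP-1 and Klf members of the list after their values had been seen. Atf3, another AP-1 family gene of the list, was not picked. The GC and length offsets lowered Junb to 0.29 and Jund to 0.45 and ended both calls (edgeR adjusted p = 0.545 and 0.272).

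The proximal promoters of the immediate early genes with the largest rises were read from the RefSeq set of GRCm38.p6, as the 250 bases before a transcription start. Of the 4 (Csrnp1, Plk3, Gadd45b and Maff), the sequences of Csrnp1 (1 of 4 listed starts) and Maff (1 of 3) are printed because they were the ones with a match to a searched motif, and the start with most matches was taken. Capitals mark the AP-1 motif TGANTCA in Csrnp1 (chr9:119983024-119983273, minus strand) and the cyclic AMP response element TGACGTCA in Maff (chr15:79347270-79347519, plus strand).
Csrnp1: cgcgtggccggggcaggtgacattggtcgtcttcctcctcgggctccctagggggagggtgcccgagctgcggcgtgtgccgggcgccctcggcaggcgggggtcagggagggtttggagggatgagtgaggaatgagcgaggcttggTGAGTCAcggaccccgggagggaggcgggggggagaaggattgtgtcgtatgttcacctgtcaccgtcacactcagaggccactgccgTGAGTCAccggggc
Maff: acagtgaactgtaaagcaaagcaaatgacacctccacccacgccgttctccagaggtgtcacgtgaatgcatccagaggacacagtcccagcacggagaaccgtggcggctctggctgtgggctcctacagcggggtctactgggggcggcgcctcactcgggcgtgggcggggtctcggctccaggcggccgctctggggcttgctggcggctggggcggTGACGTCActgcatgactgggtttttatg

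The motifs were searched on both strands in these 250-base windows, and TGANTCA and TGACGTCA cannot match the same letters. The cyclic AMP response element was found at 6 of 33 immediate early genes with a promoter in the set (18.2%), against 1.77% of all 27025 genes in the set. The CArG box, to which serum response factor binds, was found at 3 of the 33 (9.09%, against 1.62%), and TGANTCA at 2 (6.06%, against 7.82%). Of these genes, 17 were called higher. Among the 17, the cyclic AMP response element was found at 2, the CArG box at 1 and TGANTCA at 2. Of 18 heat shock genes, 7 held the heat shock element GAANNTTC (38.9%, against 7.73%). None of the 3 that were called higher with a promoter in the set held it. A strict form of the NF-κB site was found at 6 of 28 NF-κB and cytokine genes (21.4%, against 1.13%), and at 5 of the 14 of them that were higher with a promoter in the set. A looser form, searched first, was matched by 48.7% of all genes and was set aside for that reason. A match is a match of letters only.

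Heat shock genes were higher in 5 of 24 cases (20.8%, against 1.98% of all genes), with none lower. The list median was 0.55 (log2 fold change). Bag3, a co-chaperone of HSP70, was at 245 and 298 CPM at 14 weeks and 977 and 921 CPM at 1.5 years (log2 fold change 1.80 ± 0.32 SE, edgeR adjusted p = 0.011). Dnajb1, an HSP40 chaperone, was at 156 and 269 CPM and 763 and 614 CPM (log2 fold change 1.69 ± 0.38 SE, edgeR adjusted p = 0.037), and Hspa5, the HSP70 of the endoplasmic reticulum, at 645 and 525 CPM and 1820.2 and 1202 CPM (log2 fold change 1.37 ± 0.26 SE, edgeR adjusted p = 0.015). Dnajb1 showed a wide gap between the 14-week replicates, though it still did not overlap 1.5 years. The cytosolic HSP90 genes Hsp90aa1 and Hsp90ab1 were the other members called (1.36 and 0.85). Hspa1a and Hspa1b, the inducible HSP70 genes, varied most within 14 weeks, at 149.7 and 387 and 179.8 and 579 CPM, and were not called (edgeR adjusted p = 0.86 and 0.68 against 389 and 327 and 824 and 612 CPM at 1.5 years). They are a near-identical pair, so the split of reads between them is uncertain, and Hsp90aa1 and Hspa8 also share 47.5% and 38.6% of their words with other genes. Hspa8, the constitutive HSP70, was at 1060.2 and 1102 CPM and 1753 and 1542 CPM (adjusted p = 0.074). With the GC and length offsets Dnajb1 (1.62) was not called and Hspa8 (0.75) was.

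NF-κB and cytokine genes held the largest share of rises among the stress lists, with a list median of 1.51 (log2 fold change). Of 39 genes 19 were higher (48.7%, against 1.98% of all genes) and none was lower. Besides Cebpb, the largest were Cxcl2, a neutrophil chemokine at 6.18 and 4.67 CPM and 33.3 and 39.9 CPM (log2 fold change 2.75 ± 0.62 SE, edgeR adjusted p = 0.037), and Bcl3, a nuclear IκB protein at 14.7 and 14.6 CPM and 91.2 and 103 CPM (log2 fold change 2.73 ± 0.58 SE, edgeR adjusted p = 0.029). The members with the highest levels were Socs3, an inhibitor of IL-6 type signalling, at 998 and 1133 CPM and 2865 and 2533 CPM (log2 fold change 1.34 ± 0.19 SE, edgeR adjusted p = 0.0036), Cebpd at 505 and 619 CPM and 1249 and 1057 CPM (1.04), and Cxcl1 at 394 and 406 CPM and 1378 and 974 CPM (1.56). All were separate between the ages. Feedback inhibitors of the pathway were higher too. Nfkbia, which encodes IκBα, was at 87.1 and 75.1 CPM and 448 and 488 CPM (2.53), Tnfaip3 (A20) had a log2 fold change of 1.90, and among the cytokines and adhesion molecules Il6 had 2.44, Ccl2 1.54, Icam1 2.41 and Vcam1 1.30. Of the NF-κB subunits, Relb (2.22) and Nfkb2 (1.53) were called, whereas Rela (117 and 119 against 182 and 149.6 CPM) and Nfkb1 (151 and 157 against 178 and 168 CPM) were not. Tnf and Il1b, typical products of leukocytes, were at 1.49 and 0.617 and at 1.73 and 2.45 CPM at 14 weeks and at 3.04 and 2.95 and at 7.93 and 7.01 CPM at 1.5 years, and were not called. These further members were picked after their values had been seen. Bcl3 (2.03) and Nfkb2 (1.11) were not called with the GC and length offsets.

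For the unfolded protein response and oxidative stress, 6 of 27 genes were higher (22.2%, against 1.98% of all genes) and none was lower. The median log2 fold change was 0.79, or 0.75 without 1 gene that had at most 3 counts in each library of both ages. Sdf2l1, a partner of HSPA5 in the endoplasmic reticulum, was at 6.34 and 3.14 CPM and 35.4 and 21.1 CPM (log2 fold change 2.58 ± 0.48 SE, edgeR adjusted p = 0.014). Txnrd1, the cytosolic thioredoxin reductase, was at 41.9 and 47.3 CPM and 165 and 187 CPM (log2 fold change 1.98 ± 0.26 SE, edgeR adjusted p = 0.0026), and Hmox1, heme oxygenase 1, at 71.1 and 77.1 CPM and 274 and 271 CPM (log2 fold change 1.88 ± 0.44 SE, edgeR adjusted p = 0.042). The metal-binding Mt1 (1.88) and the integrated stress response genes Atf4 (1.21) and Ddit3 (1.42) made up the 6. The most abundant members did not pass the test. Gstm1 was at 621 and 737 CPM and 586 and 727 CPM, and Hsp90b1, a chaperone of the endoplasmic reticulum, at 683 and 735 CPM and 811 and 618 CPM, both with overlap, while Calr was at 729.5 and 708 CPM and 1318 and 1025 CPM (edgeR adjusted p = 0.26). Hmox1 (1.72), Atf4 (0.98) and Ddit3 (1.42) were not called with the GC and length offsets.

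**Figure D2:**
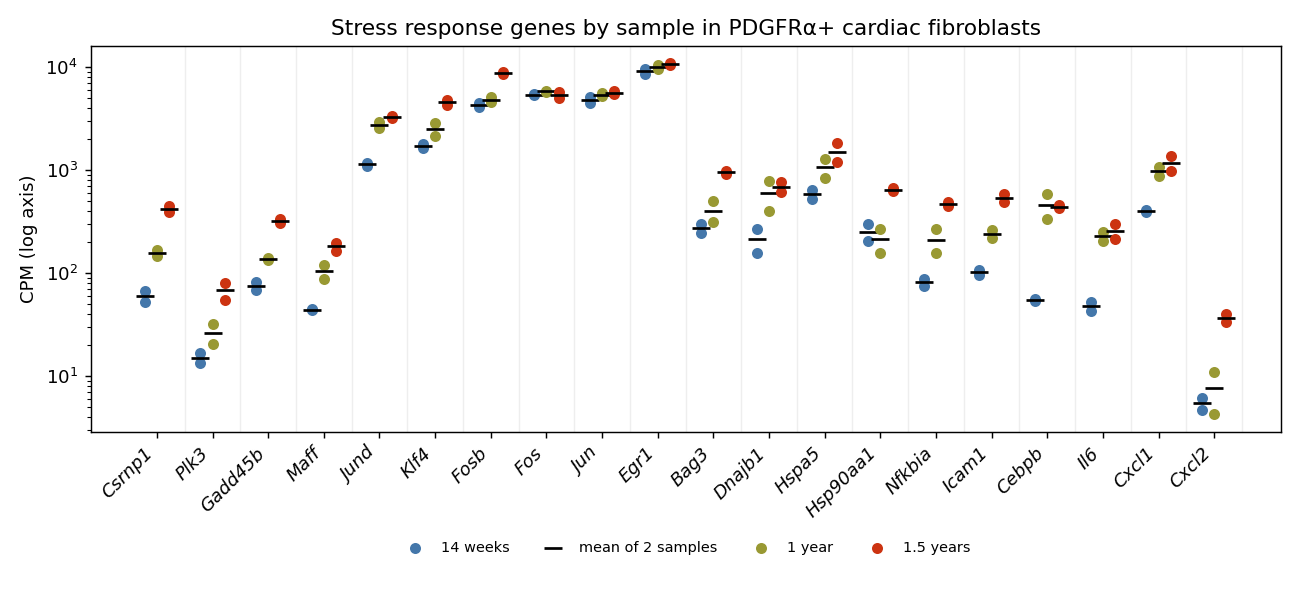
Level of 20 stress response genes in each fibroblast sample of 3 ages, of which 1 year is drawn in the middle (vertical axis, CPM on a log axis; points are samples and black bars the mean of 2). Fos lies between 4988 and 5898 CPM at all 3 ages, whereas Csrnp1 lies at 66.3 and 52.3 CPM at 14 weeks, 147 and 169 CPM at 1 year and 396 and 448 CPM at 1.5 years.

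Leukocyte genes gave almost no calls. Over the 6 leukocyte lists 1 of 88 members tested was higher and none was lower by edgeR's test (1.98% and 0.807% of all genes were), although the median log2 fold change was 0.95 and 64 of the 88 were positive. With the 15 genes that had at most 3 counts in each library of 1 age set at their bound, and 1 gene at that level at both ages left out, that median was 0.95. At an unadjusted p under 0.05 the edgeR test gave 11 leukocyte genes higher and 3 lower. Samples of the 2 ages did not overlap, with 1.5 years above, in 36 of the 88, against 25.6% of all genes. With 1.5 years below there were 11, against 26% of all genes. The lack of calls does not show that these levels were unchanged. DESeq2 called 6 higher and 2 lower, beside 5.58% and 3.52% of the genes it tested. Ptprc, the pan-leukocyte marker CD45, was at 3.29 and 3.15 CPM at 14 weeks and at 4.34 and 13.3 CPM at 1.5 years (edgeR adjusted p = 0.84), and replicate 5 of 1.5 years alone was high. The macrophage markers Csf1r (6.25 and 8.40 CPM against 10.7 and 11.3 CPM) and Adgre1 (1.96 and 1.32 CPM against 4.70 and 3.13 CPM) did not pass the test. Cd79a of B cells was at 3.12 CPM or less in every sample, and Cd3e of T cells had 1 count in the 4 libraries together.

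Lyz2, the lysozyme of myeloid cells, was at 13.1 and 18.1 CPM and 30.8 and 29.6 CPM, and Cd68 at 7.67 and 14.1 CPM and 17.8 and 16.1 CPM, with no overlap and no call (edgeR adjusted p = 0.45 and 0.44). Summed levels were 121 and 138 CPM at 14 weeks and 294 and 241 CPM at 1.5 years for 25 macrophage and monocyte genes, 358 and 400.3 CPM and 455 and 429 CPM for 20 pan-leukocyte genes, and 5.75 and 5.21 CPM and 4.39 and 12.3 CPM for 16 measured T lymphocyte and NK cell genes. Most of the pan-leukocyte sum came from Lsp1 (278 and 314 and 362 and 262 CPM) and Arhgdib (47.4 and 55.1 and 48.2 and 64.6 CPM), which overlapped between the ages. In a bulk sample, fewer cells of a type and less RNA per cell cannot be told apart.

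B lymphocyte and plasma cell genes summed to 11.0 and 8.44 CPM at 14 weeks and 4.18 and 15 CPM at 1.5 years, and granulocyte and mast cell genes to 16.3 and 9.48 CPM and 11.7 and 52.8 CPM, with the highest value in replicate 5 of 1.5 years in both. The sum of MHC class II genes was 90.3 and 95.8 CPM at 14 weeks and 225 and 169 CPM at 1.5 years. Cd74, the invariant chain, was the largest part of that at 26.1 and 33.3 CPM and 93.1 and 74.6 CPM, and H2-Ab1 was at 9.71 and 9.99 CPM and 31.5 and 27.4 CPM. Neither was called (edgeR adjusted p = 0.31 and 0.31), although both 1.5-year samples were above both 14-week samples.

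Genes of MHC class I presentation, which nearly all nucleated cells express, were higher in 6 of 16 cases, with none lower and a list median of 1.11 (log2 fold change). All 16 were positive, and in 14 the samples of 1.5 years lay above those of 14 weeks without overlap, against 25.6% of all genes, while 1.98% of all genes were called higher. Over the MHC class I, interferon and complement lists edgeR called 7 genes higher (21 at an unadjusted p under 0.05), and this count was 0 without replicate 4 and 0 without replicate 6 of 14 weeks, 2 without replicate 4 of 1.5 years and 3 without replicate 5, and 14 with DESeq2. H2-Q4 was at 129.7 and 165 CPM and 625 and 612 CPM (log2 fold change 2.07 ± 0.39 SE, edgeR adjusted p = 0.014), H2-D1 at 511 and 574 CPM and 1553 and 1405 CPM (log2 fold change 1.45 ± 0.29 SE, edgeR adjusted p = 0.022), and H2-K1 at 317 and 327 CPM and 883 and 821 CPM (log2 fold change 1.40 ± 0.24 SE, edgeR adjusted p = 0.01). These 3 genes share part of their sequence, so reads could be split between them. B2m, the common light chain, whose sequence shares no words with other genes, was at 1095 and 1215 CPM and 2112 and 2055 CPM (log2 fold change 0.85 ± 0.17 SE, edgeR adjusted p = 0.019). H2-T23 (1.33) and Tapbp (0.79) were the other members called. H2-D1 (1.20), H2-T23 (1.16) and Tapbp (0.50) were not called with the GC and length offsets.

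Of 32 interferon-stimulated genes, 1 was higher (3.12%, near the 1.98% of all genes) and none lower, and the list median was 0.33 (log2 fold change). That gene was Bst2, which encodes the antiviral protein tetherin, at 30.7 and 37.9 CPM and 74.1 and 74.8 CPM (log2 fold change 1.12 ± 0.23 SE, edgeR adjusted p = 0.025). Gbp2 was at 67.7 and 78.9 CPM and 117 and 132 CPM, and Iigp1 at 36.2 and 46.4 CPM and 102 and 141 CPM, without a call. Among 12 complement genes, which fibroblasts themselves express, C7 was lower (8.33%, against 0.807% of all genes) and none was higher. C3, the central complement component, was among the more abundant transcripts, at 4713 and 6298 CPM at 14 weeks and 18514 and 13212 CPM at 1.5 years, with no overlap and an adjusted p just over the threshold by edgeR's test (log2 fold change 1.53 ± 0.39 SE, edgeR adjusted p = 0.062). Bst2 (0.75) was not called with the GC and length offsets.

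**Figure D3:**
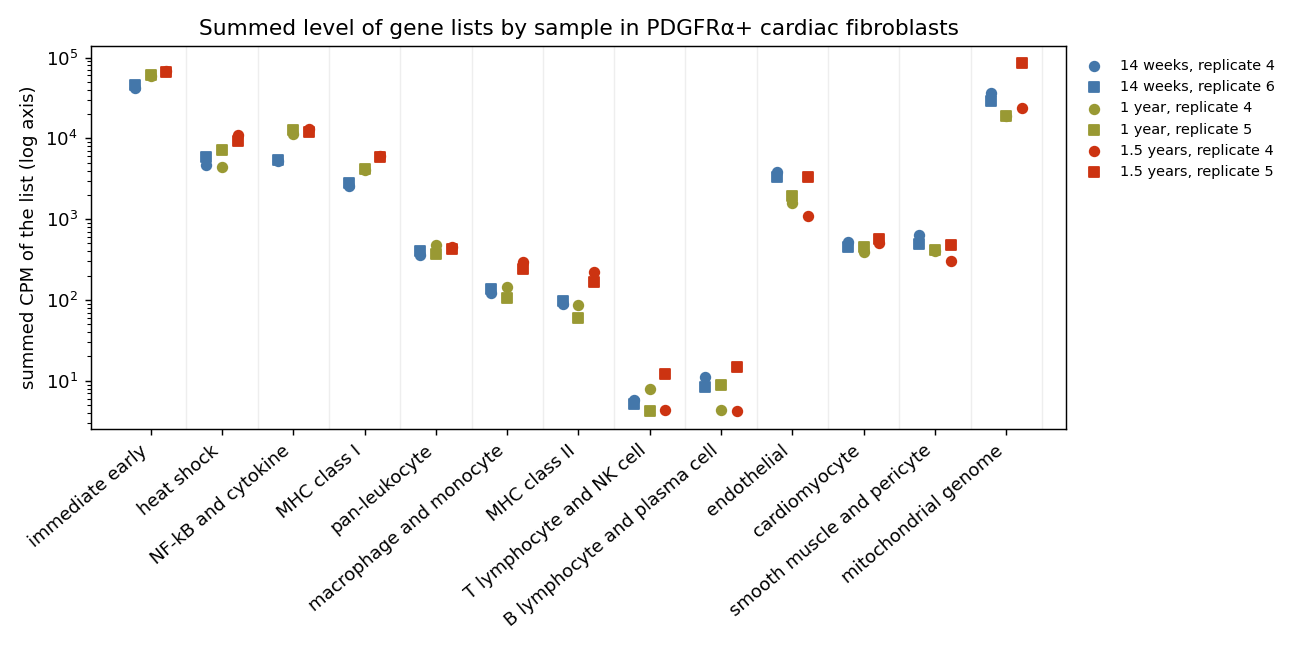
Summed level of 13 gene lists in each fibroblast sample (vertical axis, CPM on a log axis; colours are ages, circles and squares the 2 replicates). T and B lymphocyte lists lie below 20 CPM in all samples, and the endothelial list is at 1095 CPM in replicate 4 of 1.5 years against 3301 CPM in replicate 5.

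Genes of other cell types gave 1 call, and endothelial genes differed more between the 1.5-year replicates than between the mean levels of the ages. Over 8 lists of endothelial, muscle, epicardial, fat, neural and red blood cells, 1 of 69 genes was lower (1.45%) and none was higher. Of all genes tested 0.807% were lower and 1.98% higher, so these counts were near those shares. The endothelial list summed to 3808 and 3343 CPM at 14 weeks and 1095 and 3301 CPM at 1.5 years. Pecam1, the endothelial adhesion molecule CD31, was at 247 and 191 CPM and 37.4 and 234 CPM, and Cdh5 at 459.6 and 347 CPM and 34.2 and 319 CPM, so that replicate 4 of 1.5 years was low in both. The heavy chain gene of cardiac muscle, Myh6, was at 43.2 and 33.4 CPM and 3.19 and 38.7 CPM, again with replicate 4 low. Tek, an angiopoietin receptor, was the member called, at 299.5 and 298 CPM and 172 and 196 CPM (log2 fold change -0.70 ± 0.15 SE, edgeR adjusted p = 0.028). In the same replicates 4 and 5 of 1.5 years, the stress lists summed to 98031 and 91722 CPM and MHC class I genes to 6108 and 5950.4 CPM, against 55648 and 60115 CPM and 2569.8 and 2836 CPM at 14 weeks. The summed cardiomyocyte level was 523 and 452 CPM and 513 and 574 CPM, and that of the mitochondrial genome 36266 and 28684 CPM and 23871 and 84733 CPM, with replicate 5 of 1.5 years high. Tek (-0.57) was not called with the GC and length offsets.

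The remaining lists of that kind gave no call. Smooth muscle and pericyte genes summed to 633 and 493 CPM at 14 weeks and 307 and 481 CPM at 1.5 years, lymphatic endothelial genes to 156 and 117 CPM and 120.4 and 133 CPM, and epicardial and mesothelial genes to 94.8 and 107 CPM and 158 and 107 CPM. Adipocyte genes summed to 1009 and 1163 CPM and 1311 and 1301 CPM, nearly all of it from the lipase gene Lpl (994 and 1149 and 1300.4 and 1288 CPM), while Adipoq had no count in 3 of the 4 libraries. Schwann and neural genes summed to 32.0 and 34.0 CPM and 50.9 and 59.3 CPM, and red blood cell genes to 20.5 and 21.3 CPM and 33.3 and 94.5 CPM.

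Fibroblast genes gave calls in both directions. Over 10 lists, 23 of 273 members tested were higher (8.42%) and 9 were lower (3.30%), and the median over them was 0.04 (log2 fold change), beside 1.98% and 0.807% of all genes. Leaving out replicate 4 or 6 of 14 weeks left 2 and 4 higher and 1 and 1 lower, and leaving out replicate 4 or 5 of 1.5 years left 6 and 15 higher and 11 and 1 lower. Of 34 fibroblast identity genes 1 was called, Gfpt2, which encodes an enzyme of hexosamine synthesis, at 397 and 520.1 CPM and 1159 and 1058 CPM (log2 fold change 1.27 ± 0.23 SE, edgeR adjusted p = 0.013). The most abundant of them, Gsn, which encodes the actin-severing protein gelsolin, was at 35521 and 37446 CPM and 50653 and 49781 CPM (edgeR adjusted p = 0.26). Thy1, a surface marker of fibroblasts, was at 66.2 and 73.3 CPM and 54.2 and 26.8 CPM (adjusted p = 0.2).

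Collagens gave 3 genes higher and 1 lower of 38, against 1.98% and 0.807% of all genes, and the median log2 fold change was -0.15. The principal fibrillar collagens were not called. Col1a1 was at 4362 and 4519 CPM at 14 weeks and 3887 and 2286 CPM at 1.5 years (log2 fold change -0.52 ± 0.25 SE, edgeR adjusted p = 0.39), Col1a2 at 3993 and 4120.4 CPM and 3616 and 2419 CPM (log2 fold change -0.43 ± 0.20 SE, edgeR adjusted p = 0.39), and Col3a1 at 6426 and 6176 CPM and 5627 and 2892 CPM (log2 fold change -0.56 ± 0.27 SE, edgeR adjusted p = 0.39). In all 3 the samples of 1.5 years were below those of 14 weeks, and replicate 5 was well below replicate 4. The minor fibrillar collagens Col5a3 (537 and 583 CPM against 1248 and 967 CPM, log2 fold change 0.98 ± 0.18 SE, edgeR adjusted p = 0.012) and Col27a1 (83.4 and 81.5 CPM against 254 and 196 CPM, log2 fold change 1.45 ± 0.27 SE, edgeR adjusted p = 0.015) were higher. Among the other collagens Col18a1, of the basement membrane, was higher (0.67, edgeR adjusted p = 0.037) and Col8a1, a short-chain collagen, lower (652 and 781 CPM against 442 and 328 CPM, log2 fold change -0.90, edgeR adjusted p = 0.038). Basement membrane Col4a1 was at 3090.1 and 3327 CPM and 2957 and 2611 CPM, without a call. All 4 calls ended with the GC and length offsets, at 0.44 for Col5a3, 1.09 for Col27a1, 0.18 for Col18a1 and -0.75 for Col8a1.

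Enzymes that fold and cross-link collagen gave 2 higher genes of 27 (7.41%) and none lower (median -0.08), against 1.98% and 0.807% of all genes. These were P3h3, a prolyl hydroxylase family member (135 and 151 CPM against 306 and 266 CPM, log2 fold change 1.00 ± 0.13 SE, edgeR adjusted p = 0.0028), and Plod3, a lysyl hydroxylase (103 and 128 CPM against 213 and 173 CPM, log2 fold change 0.74 ± 0.18 SE, edgeR adjusted p = 0.046). Offsets for GC content and transcript length lowered P3h3 to 0.40 and Plod3 to 0.43 and ended both calls. Lox, the lysyl oxidase that cross-links fibrils, was at 98.0 and 109.9 CPM and 104 and 71.5 CPM, with overlap, and its relative Loxl1 at 1023 and 1120.2 CPM and 1603 and 1080.1 CPM. Neither was called (edgeR adjusted p = 0.77 and 0.54).

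In matrix proteases and their inhibitors 4 of 30 genes were higher (13.3%) and 1 was lower (3.33%), against 1.98% and 0.807% of all genes. Next to Adamts4, the related protease Adamts1 was at 421 and 418 CPM and 1256 and 1256 CPM (log2 fold change 1.58 ± 0.31 SE, edgeR adjusted p = 0.018), and the cathepsin gene Ctsb at 544 and 546 CPM and 893 and 744 CPM (0.59, edgeR adjusted p = 0.049). Another member of the family went the other way, with Adamts15 at 96.4 and 93.0 CPM and 34.7 and 18.8 CPM (log2 fold change -1.82 ± 0.32 SE, edgeR adjusted p = 0.01). Mmp3, stromelysin 1, was at 86.8 and 72.8 CPM and 146 and 201 CPM, and Mmp19 at 57.4 and 47.8 CPM and 63.1 and 66.9 CPM, both above 14 weeks in both samples and not called (adjusted p = 0.21 and 0.44 by edgeR). Timp2, a metalloproteinase inhibitor, was at 2130.1 and 2162 CPM and 2839 and 2591 CPM (adjusted p = 0.23).

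Proteoglycans and matricellular proteins split 5 higher to 3 lower of 43 (11.6% and 6.98%, against 1.98% and 0.807% of all genes). Has1, a hyaluronan synthase, was at 22.7 and 38.7 CPM and 278 and 213 CPM (log2 fold change 3.00 ± 0.70 SE, edgeR adjusted p = 0.043), Thbs1, which encodes thrombospondin 1, at 565 and 603 CPM and 1960.0 and 1726 CPM (log2 fold change 1.66 ± 0.27 SE, edgeR adjusted p = 0.0076), and Emilin1, an elastic fibre protein, at 275 and 291 CPM and 662 and 466 CPM (log2 fold change 1.00 ± 0.23 SE, edgeR adjusted p = 0.044). Lower were the collagen-binding Sparc (3491 and 3242 CPM against 2022 and 1325 CPM, log2 fold change -1.01 ± 0.20 SE, edgeR adjusted p = 0.02), Ccdc80 (2679.9 and 2752 CPM against 1730.2 and 1388 CPM, -0.80) and the basement membrane protein nidogen 1, Nid1 (4278 and 4648 CPM against 2902 and 2282 CPM, -0.78). In these 3 genes replicate 5 of 1.5 years had the lowest level. Ltbp4, which binds latent TGF-β, was at 6667 and 7326 CPM and 11216 and 10273 CPM (log2 fold change 0.62, edgeR adjusted p = 0.038), and the GC and length offsets reduced that value to 0.018. They lowered Emilin1 to 0.46, and Emilin1, Has1 (3.09) and Nid1 (-0.73) were not called with them. Of 18 myofibroblast genes Thbs1 alone was called, and Postn, periostin, was at 620.2 and 577 CPM and 832 and 427 CPM, with overlap.

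**Figure D4:**
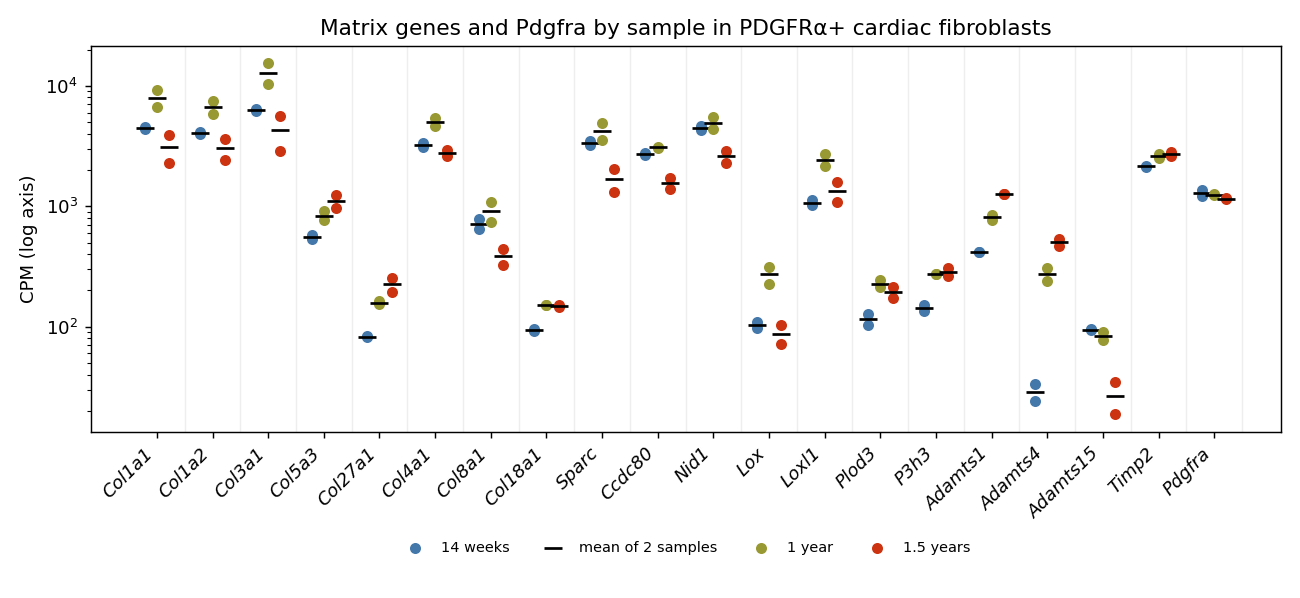
Level of 19 matrix genes and Pdgfra in each fibroblast sample of 3 ages, of which 1 year is drawn in the middle (vertical axis, CPM on a log axis; points are samples and black bars the mean of 2). Col1a1, Col1a2 and Col3a1 were highest at 1 year, with Col3a1 at 15332 and 10291 CPM, while Pdgfra was between 1139 and 1367 CPM at all 3 ages.

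Signalling genes of the TGF-β, BMP and Wnt pathways gave 3 higher and 1 lower of 41 (7.32% and 2.44%). Of all genes 1.98% were higher and 0.807% lower. Id3, a BMP target that blocks helix-loop-helix factors, was at 176 and 137 CPM and 449.6 and 452 CPM (log2 fold change 1.53 ± 0.20 SE, edgeR adjusted p = 0.0024), the ligand gene Bmp2 at 27.2 and 21.4 CPM and 68.4 and 57.0 CPM (log2 fold change 1.37 ± 0.30 SE, edgeR adjusted p = 0.03), and Smad3, the signal transducer of TGF-β, at 82.7 and 91.7 CPM and 207 and 160.1 CPM (log2 fold change 1.07 ± 0.20 SE, edgeR adjusted p = 0.013). The receptor gene Bmpr2 was lower (289.8 and 289 CPM against 200.3 and 185 CPM, -0.59). Smad1 (44.6 and 38.1 CPM and 47.0 and 44.8 CPM) and Tgfbr1 (79.2 and 65.6 CPM and 83.9 and 109 CPM) were not called. Bmp2 (1.31) and Bmpr2 (-0.28) were not called with the GC and length offsets.

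Of 22 senescence genes and cell cycle inhibitors, 5 were higher (22.7%) and 2 lower (9.09%), against 1.98% and 0.807% of all genes. Cdkn1a, which encodes the inhibitor p21, was at 129 and 141 CPM and 368 and 472 CPM (log2 fold change 1.64 ± 0.23 SE, edgeR adjusted p = 0.004). The antiproliferative gene Btg1 (1.32) and the insulin-like growth factor binding proteins Igfbp4 (1298 and 1315 CPM against 3022 and 2906 CPM, 1.18), Igfbp6 (1.04) and Igfbp7 (0.84) completed the 5. The GC and length offsets lowered Igfbp6 to 0.41 and Igfbp7 to 0.34 and ended both calls. Cdkn1b, the inhibitor p27, was lower (100.8 and 116 CPM against 57.0 and 57.0 CPM, log2 fold change -0.93 ± 0.16 SE, edgeR adjusted p = 0.01). Hmgb1, a chromatin protein with a log2 fold change of -1.79, shares 20.4% of its words with other genes and is uncertain. In 33 cell cycle and replication genes 1 was lower (3.03%, against 0.807% of all genes) and none was higher. It was Bub1b, a spindle checkpoint kinase at 3.74 and 2.69 CPM and 0.829 and 0.249 CPM. Mki67, the proliferation marker Ki67, was at 6.46 and 6.45 CPM and 4.34 and 3.83 CPM (edgeR adjusted p = 0.54). Cytosolic ribosomal protein genes gave 7 higher and 2 lower of 36, with Rplp2 at 1.17 and Rpl5 at -1.55, and 32 of the 36 share at least 5% of their words with another gene, which makes their counts uncertain.

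The fibroblasts of 1 year differed from list to list in where they lay. The immediate early genes summed to 59546 and 60812 CPM at 1 year, between the sums of 14 weeks and 1.5 years. The NF-κB and cytokine genes summed to 11233 and 12852 CPM and the unfolded protein and oxidative stress genes to 5433 and 5314 CPM at 1 year, against 13029 and 11839 CPM and 5839 and 5314 CPM at 1.5 years. The heat shock genes summed to 4416 and 7113 CPM at 1 year, 4716 and 5824 CPM at 14 weeks and 11007 and 9186 CPM at 1.5 years. Against 14 weeks, 240 genes were higher at 1 year (1.36%) and 85 lower (0.48%), and between 1.5 years and 1 year 16 were higher (0.0903%) and 22 lower (0.124%) by edgeR's test. These comparisons share samples with the one of 1.5 years against 14 weeks, so the values are only set side by side. The samples of 1 year and 1.5 years also differed in Xist and Ddx3y, so age and sex cannot be told apart between them. In the stress lists 23 of 134 genes were higher at 1 year than at 14 weeks, 13 of them in the NF-κB and cytokine list and 8 among the immediate early genes, and no heat shock gene was. Cebpb was at 335 and 588 CPM at 1 year (log2 fold change 3.07 over 14 weeks) and Socs3 at 2975 and 2982 CPM, close to their levels of 1.5 years. Hk2, at 66.6 and 81.6 CPM, and Csrnp1, at 147 and 169 CPM, lay between. Cxcl2 (4.28 and 11.0 CPM), Cxcl10 (12.9 and 11.8 CPM), Hmox1 (82.8 and 84.3 CPM) and B2m (1279 and 1284 CPM) were nearer to their levels of 14 weeks than to those of 1.5 years.

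Col3a1, at 15332 and 10291 CPM at 1 year, was lower at 1.5 years by edgeR's test (log2 fold change -1.59, adjusted p = 0.04), as were Col1a2 (-1.14), Col5a2 (-1.26), Col4a2 (-1.07) and Col8a1 (-1.24). Lox was at 316 and 227 CPM at 1 year and was lower at 1.5 years (-1.63, adjusted p = 0.038). Sparc, Ccdc80 and Nid1 were at 4879 and 3578, 3051 and 3111 and 5516 and 4366 CPM at 1 year and were lower at 1.5 years (-1.34, -0.98 and -0.93). The summed fibrillar collagen level was 17897 and 18018 CPM at 14 weeks, 38262 and 27738 CPM at 1 year and 17392 and 10532 CPM at 1.5 years. Of the 38 collagens, 3 were higher at 1 year than at 14 weeks (1.36% of all genes were). Between 1 year and 1.5 years 5 were lower (0.124% of all genes were). In these falls from 1 year to 1.5 years, age and sex cannot be told apart.

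Whole hearts of the same ages were set beside the fibroblasts, with 3 samples each. Per the study's methods, heart RNA came from tissue, whereas the fibroblasts were digested and sorted first. Handling and tissue therefore cannot be told apart in this comparison. The study describes its fibroblasts as coming from the sequenced hearts. No replicate number of these hearts recurs among the fibroblast samples of the 2 ages, so the samples were not paired. As in the fibroblasts, Xist was at 0.414 CPM or less in every heart of 14 weeks and between 34.8 and 129 CPM at 1.5 years, so age and sex cannot be told apart there either. A test of the difference between the tissues in the change from 14 weeks to 1.5 years was positive in fibroblasts for 391 genes (2.02% of 19381) and negative for 156 (0.805%). Without replicate 4 or 6 of the 14-week fibroblasts 84 and 130 genes were positive, without replicate 4 or 5 at 1.5 years 217 and 217, without replicate 1 or 3 of the 14-week hearts 229 and 188, and without replicate 1 of the 1.5-year hearts 697. Without the same samples in that order 50, 65, 153, 97, 88, 91 and 237 genes were negative, and 85 without replicate 2 of the 14-week hearts. In the stress lists 24 of 134 genes passed it as positive and none as negative, 11 of them immediate early and 7 heat shock genes, and the median change of the 134 in whole hearts was -0.06. Whole hearts had 3.9% of genes higher and 5.81% lower, and among the stress genes 7 higher and 11 lower.

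Of the genes with the largest rises in fibroblasts, Hk2 was at 328, 343 and 393 CPM in hearts of 14 weeks and 183, 180.1 and 124 CPM at 1.5 years, and its change differed between the tissues by 5.31 ± 0.53 SE, edgeR adjusted p = 3.4e-06. Cebpb was at 85.9, 79.7 and 106 CPM and 26.1, 27.5 and 41.2 CPM in whole hearts, and differed by 4.51 ± 0.45 SE, edgeR adjusted p = 3.4e-06. Both were lower in whole hearts at 1.5 years and higher in fibroblasts. Adamts1 differed by 3.12 ± 0.40 SE, edgeR adjusted p = 0.00011, with levels of 37.5, 48.9 and 43.8 CPM in hearts of 14 weeks and 19.7, 14.1 and 10.5 CPM at 1.5 years. Csrnp1 differed by 3.10 ± 0.47 SE, edgeR adjusted p = 0.00074, Bag3 by 2.39 ± 0.34 SE, edgeR adjusted p = 0.00043, Hspa5 by 2.16 ± 0.33 SE, edgeR adjusted p = 0.00086 and Thbs1 by 2.69 ± 0.59 SE, edgeR adjusted p = 0.014. In these genes the fitted change in whole hearts was -1.50, -0.23, -0.55, -0.75 and -0.99. These 5 were picked after their values had been seen. MHC class I genes gave no gene that passed the test of the difference, and 5 of the 16 were higher in whole hearts too. B2m changed by 1.15 there, and H2-D1 by 1.09. Fibroblast lists gave 6 positive and 5 negative of 273, against 2.02% and 0.805% of all genes, and collagens gave none of 38.

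**Figure D5:**
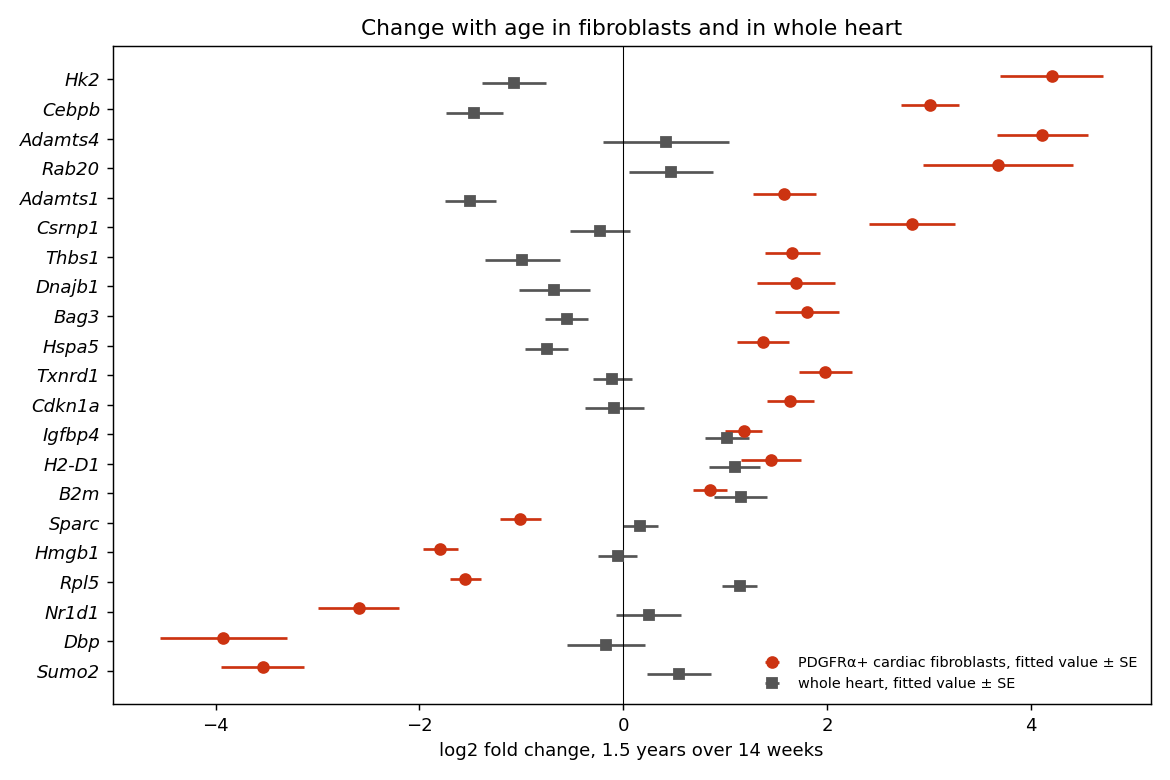
Fitted log2 fold change between 1.5 years and 14 weeks with its SE (horizontal axis) in fibroblasts (red circles) and whole hearts (grey squares) for 21 named genes. Stress genes such as Csrnp1, Bag3 and Hspa5 were positive in fibroblasts and negative in whole hearts, and B2m, H2-D1 and Igfbp4 were positive in both. Fibroblasts were digested and sorted before RNA isolation, and heart RNA came from tissue.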

How the data were processed

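The authors mapped single-end RNA-Seq reads to mm10 with STAR 2.5.3a and deposited raw counts per gene, 1 table for fibroblasts and 1 for whole hearts, with no normalization. Groups were taken from the sample labels. Gene positions came from GENCODE M21 (GRCm38), with RefSeq symbols for 258 genes. Counts were fitted with edgeR 4.0.16 in R 4.3.3 (TMM scaling, filterByExpr, quasi-likelihood F test, Benjamini-Hochberg adjustment, threshold 0.05) over all 5 fibroblast ages, which share 1 estimate of the spread. The tissue difference was an interaction term in 1 fit over both tables. Python 3.11.15 made the other tables. Levels are TMM-scaled CPM computed from the deposited counts. With 2 samples against 2, an exact permutation test cannot go below 0.33, so none was used for single genes. Genes were named as the 8 largest rises and falls that passed the test without overlap at 10 CPM or more, the 3 largest called changes in each direction and the 3 highest levels of each list, genes the study names, and the 4 largest tissue differences in each direction; other genes were picked after their values were seen. The members, lists and named genes were chosen with earlier results of these data known. Alternatives were other scalings and filters, DESeq2 1.42.0, a 2-fold minimum, a fit of 2 ages only, X and Y genes left out, and leaving out each sample. Offsets for GC content and transcript length, known for 96.5% of genes, and the count without shared words were added after seeing the data. Counts were simulated from the group means and edgeR's own dispersions, a setting that may favour edgeR. The changed genes were drawn only from those above a minimum mean count, so recovery among genes with low counts was not measured. For the fibroblast comparison, edgeR recovered 64.5% of 200 genes changed by 4-fold, with 7 false calls of 136. DESeq2 recovered 74.5%, with 88 false of 237. For the tissue difference edgeR recovered 38% with 0 false. The values of 1 leukocyte list member are not reported here.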

Additional observations from a re-analysis of the deposited data

Results flagged for a closer look

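The change from 14 weeks to 1.5 years differed between fibroblasts and whole hearts in 391 genes with a larger value in fibroblasts and 156 with a smaller one, by a test of the difference itself (edgeR's quasi-likelihood F test of the interaction). Among the named genes Hk2 differed most, by 5.31 on the log2 scale, followed by Cebpb at 4.51, Adamts4 at 3.73 and Rab20 at 3.25. On the other side were Sumo2 at -4.05, Dbp at -3.70, Nr1d1 at -2.80 and Rpl5 at -2.65. Hk2 and Cebpb were higher with age in fibroblasts and lower in whole hearts, and Rpl5 was lower in fibroblasts and higher in whole hearts. Sumo2 and Rpl5 have near-identical copies elsewhere in the transcriptome, and the 14-week fibroblast libraries stood apart in such genes. Fibroblasts were digested and sorted before RNA isolation and heart RNA came from tissue, so handling and tissue cannot be told apart in these differences. Groups of 2 or 3 samples gave no test of single samples that lie far from the others.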

How the results depend on the processing

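Of 96 genes called among those named in the text or by the rule, none changed direction. Of these, 96 stayed called with median-of-ratios size factors and with DESeq2, 86 with library size alone, 62 with GC and length offsets, 19 and 25 without replicate 4 or 6 of 14 weeks, and 49 and 58 without replicate 4 or 5 of 1.5 years. Among genes with under 5% shared words, 311 were higher and 97 lower. With library size alone, 209 genes were higher and 352 lower at 1.5 years, with DESeq2 842 and 531, with only the 2 ages 547 and 248, with offsets for GC content and transcript length 159 and 90, and with a 2-fold minimum 212 and 80. A minimum of 10 counts in every sample gave 263 lower. Leaving out 1 sample gave 37 to 164 higher and 16 to 59 lower. In the stress lists 1 gene was lower with library size alone, DESeq2, only the 2 ages and the offsets, and leaving out 1 sample gave 8 to 34 higher. In the leukocyte lists DESeq2 gave 6 higher and 2 lower, the minimum of 10 counts 3 and 1, only the 2 ages 4 and 1, and leaving out 1 sample 0 to 1 of either. In the fibroblast lists library size alone gave 14 higher and 18 lower, DESeq2 42 and 20, the 2-fold minimum 13 and 4, the offsets 11 higher, the minimum of 10 counts 16 lower, and leaving out 1 sample 2 to 15 higher and 1 to 11 lower. The tissue difference was positive in 130 and negative in 339 genes with library size alone, and ranged from 84 to 697 and from 50 to 237 when 1 sample was left out, with the lowest without 14-week fibroblast replicate 4 and the highest without 1.5-year heart replicate 1. At 1 year against 14 weeks library size alone gave 122 higher and 179 lower, and DESeq2 720 and 409. Between 1.5 years and 1 year DESeq2 gave 174 higher and 171 lower. The cause was not tested for any of these, except that a fold minimum leaves fewer calls by construction. DESeq2 made more false calls on data simulated with edgeR's own dispersions. Such data cannot show which of its further calls in the real data are false.

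A replicate block for the whole heart samples gave 349 positive and 124 negative tissue differences. Same-numbered hearts did not deviate together over all genes (correlations 0.0075, -0.016 and -0.014). With so few samples this cannot settle whether the numbers pair them. The fibroblast ages compared share only replicate 4, so no paired fit was made for fibroblasts.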

Other observations

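Cytosolic ribosomal protein genes encode the structural proteins of the ribosome. In whole hearts 35 of 36 were higher at 1.5 years, against 3.9% of all genes. In fibroblasts 7 of 36 were higher and 2 lower, against 1.98% and 0.807% of all genes. In 16 of the 36 the change was smaller in fibroblasts than in whole hearts by edgeR's test of the difference, and in none was it larger. Of all genes it was smaller in 0.805% and larger in 2.02%. Rpl5 was at 296 and 299 CPM in fibroblasts of 14 weeks and 104 and 99.3 CPM at 1.5 years, and at 67.9, 85.4 and 74.3 CPM and 135, 143 and 204 CPM in whole hearts. In 32 of the 36 at least 5% of the transcript's 50-base words were shared with another gene, the kind of gene in which the 14-week fibroblast libraries stood apart, and the part of read assignment in these values was not tested. In fibroblasts library size alone gave 6 higher and 5 lower, and DESeq2 14 and 5.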
